A study of Mus musculus with 7 samples.

Results

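Mast cell genes were followed in tumors that grew from mouse embryonic fibroblasts (MEFs) with or without nuclear myosin 1 (NM1), a myosin isoform made from the Myo1c gene. The 9 genes, Cpa3, Mcpt4, Cma1, Tpsb2, Tpsab1, Ms4a2, Fcer1a, Hdc and Kit, were found by their gene symbol among the 46603 genes of the count tables, and all 9 were present. KO cells are MEFs that lost NM1 through CRISPR/Cas9 editing, and the KO+NM1 line was made from them by a lentivirus that carries NM1 with HA and V5 tags, with neomycin selection and tests of single clones. Both kinds of cell were injected under the skin of female Balb/c nude mice aged 16 weeks, which lack a thymus but keep their own mast cells, and a tumor of each kind was cut into 4 pieces that were homogenized separately. RNA-seq libraries of 3 KO pieces and 4 KO+NM1 pieces were compared. The sample descriptions give 1 tumor per condition, collected after 30 days, whereas the methods of the study write of tumors and of a slightly shorter time, so errors and p-values here cover the spread between pieces and may hold no difference between mice. The site of injection is the right flank in the sample descriptions and the methods and the mammary pad in the text of the study's results.

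Mast cells are tissue-resident cells of the immune system that store histamine, heparin and proteases in granules and release them when IgE bound to its receptor is cross-linked. They grow under the control of stem cell factor, the ligand of the receptor tyrosine kinase Kit. In mice, mast cells of connective tissue are known for the carboxypeptidase Cpa3, the chymases Mcpt4 and Cma1 and the tryptases Tpsb2 and Tpsab1, whereas mast cells of mucosal surfaces are known for the chymases Mcpt1 and Mcpt2. Basophils share the IgE receptor and histamine with mast cells, and Kit is also well known in melanocytes, in the interstitial cells of Cajal of the gut and in luminal cells of the mammary gland.

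Levels are given as CPM (each library's counts relative to its TMM-scaled total), and library totals were 24088309 to 28326568 counts. At this depth 3 counts stand for 0.0991 to 0.148 CPM. Myo1c, the gene that holds NM1 and the other myosins of that locus, was at 303 ± 12.1 CPM (SD, n = 3) in KO pieces and 408 ± 23.1 CPM (SD, n = 4) in KO+NM1 pieces, with every KO piece below every KO+NM1 piece (log2 fold change -0.43 ± 0.13 (SE), adjusted p = 0.031 with edgeR's quasi-likelihood test). That p was above 0.05 in 6 of 15 alternatives, and in TPM, which is not TMM-scaled, the means were 159 ± 7.57 and 161 ± 37.7. The count is per gene and does not separate NM1 from other Myo1c products. Libraries differed in other ways too: mitochondrially encoded genes took 1.81 to 2.14% of counts in KO pieces and 5.11 to 18.5% in KO+NM1 pieces. KO+NM1 piece 01 stood apart from the other 3 pieces of its tumor in 4 genes shared by most leukocytes (Ptprc, Cd53, Coro1a, Laptm5), whose summed level was 2967 CPM there, 109 to 152 CPM in pieces 02 to 04 and 720 to 819 CPM in KO pieces. Calls of the members and of the lists that change without this piece are given both ways.

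Sequences just upstream of the transcription start are shown for the 2 chymases, Cpa3 and Kit, because Kit was higher relative to Cpa3 in every KO+NM1 piece than in any KO piece, while the proportions of the chymases to Cpa3 spanned a narrower range. Each is 250 bases long, ends at the base before the RefSeq start (GRCm38.p6), lies outside the gene as RefSeq gives it, and is printed 5′ to 3′ on the strand of the gene. Capitals mark GATAA or its reverse complement TTATC, the core letters read by GATA factors such as Gata2, a factor needed for mast cells. The windows are chr3:20242182-20242431 (minus strand) for Cpa3, chr14:56062311-56062560 (minus) for Mcpt4, chr14:55944676-55944925 (minus) for Cma1 and chr5:75574737-75574986 (plus) for the first of the RefSeq starts of Kit. The GENCODE annotation used for the counts places the start of Kit at chr5:75574916 and that of Mcpt4 at chr14:56062313. By that annotation the last bases of these windows lie inside the gene.
Cpa3: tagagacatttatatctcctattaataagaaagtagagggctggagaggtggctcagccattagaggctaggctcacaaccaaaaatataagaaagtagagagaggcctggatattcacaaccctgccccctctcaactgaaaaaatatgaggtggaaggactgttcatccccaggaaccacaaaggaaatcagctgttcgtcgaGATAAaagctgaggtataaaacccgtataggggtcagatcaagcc
Mcpt4: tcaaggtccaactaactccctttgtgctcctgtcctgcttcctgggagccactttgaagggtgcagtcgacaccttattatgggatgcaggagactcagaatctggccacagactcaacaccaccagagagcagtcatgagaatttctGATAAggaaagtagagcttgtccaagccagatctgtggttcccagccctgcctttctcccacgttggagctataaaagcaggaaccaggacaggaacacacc
Cma1: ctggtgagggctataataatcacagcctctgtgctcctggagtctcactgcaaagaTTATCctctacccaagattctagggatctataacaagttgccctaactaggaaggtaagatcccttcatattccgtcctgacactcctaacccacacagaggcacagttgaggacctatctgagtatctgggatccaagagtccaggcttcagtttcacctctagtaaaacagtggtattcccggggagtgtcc
Kit: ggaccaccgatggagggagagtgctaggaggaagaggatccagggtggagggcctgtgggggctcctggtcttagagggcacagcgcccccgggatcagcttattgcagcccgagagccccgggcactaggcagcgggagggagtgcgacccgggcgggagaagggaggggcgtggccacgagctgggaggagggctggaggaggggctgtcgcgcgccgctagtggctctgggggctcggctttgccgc
The motif begins 45 bases before the start in Cpa3, 102 bases before it in Mcpt4 and 194 bases before it in Cma1, on the other strand in Cma1. Searched on both strands, GATAA was present in the windows of 5 of the 7 genes with a RefSeq entry, Cpa3, Mcpt4, Cma1, Fcer1a and Ms4a2 (3 matches in Ms4a2), and in those of neither Hdc nor Kit. It was present in 22.6% of the 32851 upstream windows of this length in the RefSeq table. The E-box letters CATGTG, read by factors such as Mitf, were found only in the Fcer1a window, against 12.3% of all windows, and CACGTG in none of the 7, against 6.02%. A match describes letters only. Tpsb2 and Tpsab1 had no entry.

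The tryptase genes are neighbours, Tpsab1 at chr17:25343245-25345562 on the minus strand and Tpsb2 at chr17:25366305-25369098 on the plus strand, and their coding sequences are 74.7% identical. Since Tpsab1 was called higher in KO pieces and Tpsb2 was not, 100 coding bases of exon 3 of each, the stretch with the most differences among 365 windows inside a single exon of both, are shown with the 44 bases that differ in capitals. They lie at chr17:25367047-25367146 (plus) in Tpsb2 and chr17:25344816-25344915 (minus) in Tpsab1.
Tpsb2: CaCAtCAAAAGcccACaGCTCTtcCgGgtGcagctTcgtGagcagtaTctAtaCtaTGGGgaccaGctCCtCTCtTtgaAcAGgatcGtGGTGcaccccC
Tpsab1: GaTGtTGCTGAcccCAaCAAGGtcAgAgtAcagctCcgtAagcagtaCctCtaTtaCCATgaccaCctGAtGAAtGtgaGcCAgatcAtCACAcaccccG
The longest run that both coding sequences share is 39 bases, and no stretch of 75 bases in an annotated transcript of Tpsb2, Tpsab1, Cpa3, Fcer1a, Hdc or Kit occurs in a transcript of any other gene. For Mcpt4 2.51% of such stretches are shared with Cma2, for Cma1 1.67% are shared with an unnamed gene, and for Ms4a2 1.22% are shared with Ms4a4b. Mcpt4 and Cma1 are 66.7% identical in their coding sequence.

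Of the 9 genes, 8 had enough counts to be tested. KO pieces were lower for 2 of them (Mcpt4 and Kit), where 20.3% of all 16887 tested genes were called lower, and higher for 1 (Tpsab1), where 17.1% of all tested genes were called higher, at an adjusted p under 0.05 and a 2-fold change. By the adjusted p alone the counts were the same, 2 lower and 1 higher, where 24.5% and 25.7% of all tested genes passed. The other 5 did not pass the test. The median log2 fold change of the 8 was -1.34, beside -0.0017 over all tested genes. Groups did not overlap for Kit, with every KO piece below (26.4% of all tested genes), nor for Tpsab1, with every KO piece above (30.5%), and they overlapped for the other 7. Without KO+NM1 piece 01, 5 members were called lower (Cpa3, Mcpt4, Cma1, Tpsb2 and Kit) and 1 higher (Tpsab1), where 25.1% and 21.7% of 16617 tested genes were called lower and higher. In bulk RNA a lower level can stem from fewer mast cells, from less RNA per cell or, for genes such as Kit, from other cells that express them. These cannot be told apart.

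**Figure D1:**
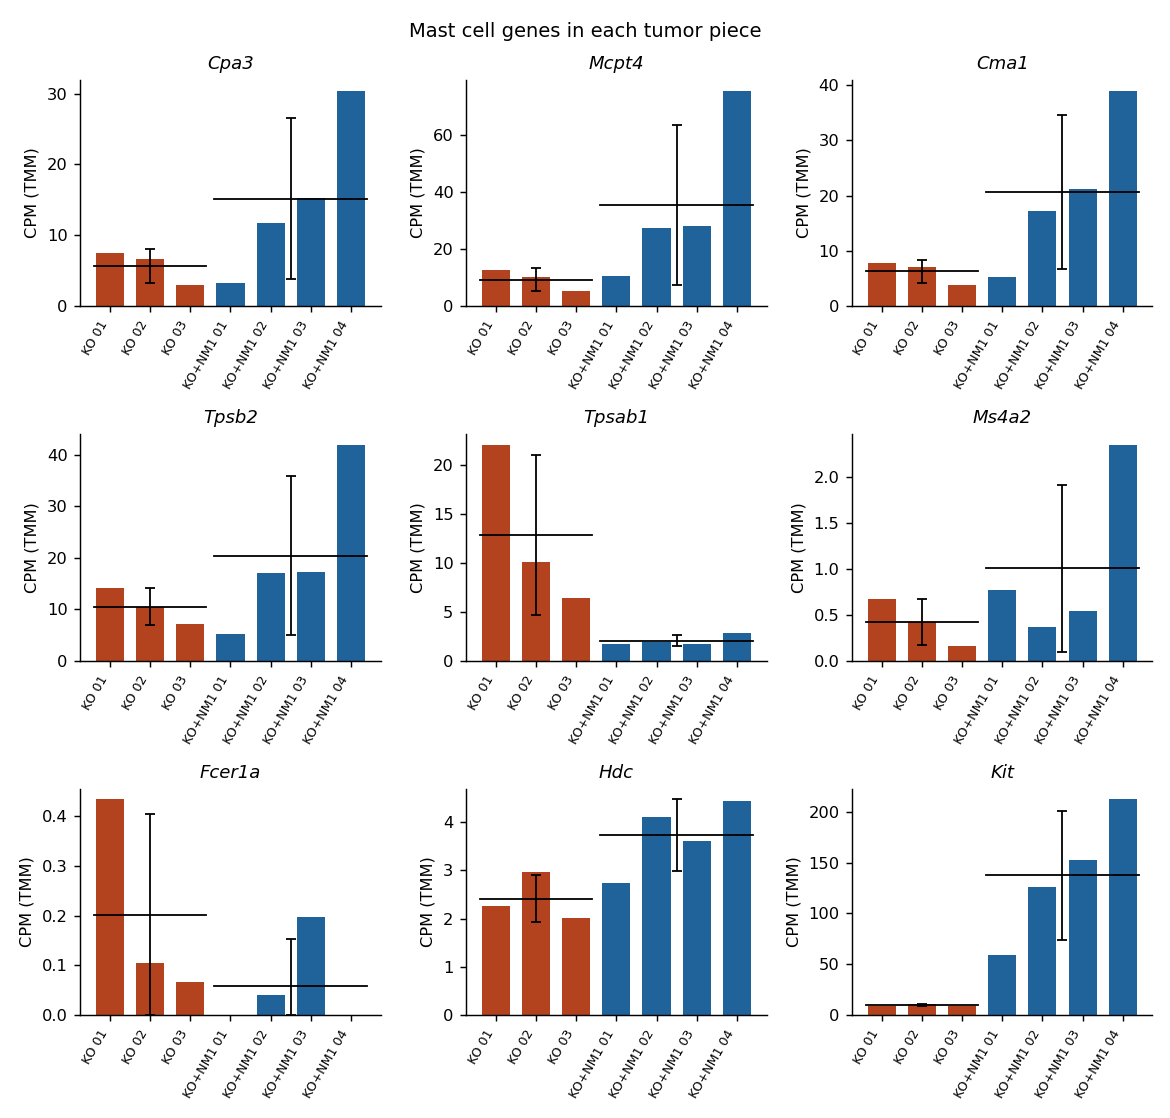
Levels of the 9 mast cell genes in each tumor piece, in CPM after TMM scaling, on an axis that starts at 0 in each panel; horizontal lines are group means and bars are SDs, cut at 0 (n = 3 KO and 4 KO+NM1 pieces). KO piece 03 is the lowest KO piece for all 9 genes, KO+NM1 piece 04 the highest KO+NM1 piece for 8, and only Tpsab1 and Kit have groups that do not overlap.

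Cpa3 encodes the carboxypeptidase that fills mast cell granules together with the chymases. Its level was 7.53, 6.60 and 2.94 CPM in KO pieces 01 to 03 and 3.32, 11.8, 15.2 and 30.4 CPM in KO+NM1 pieces 01 to 04. KO+NM1 piece 01 lay among the KO pieces, below 2 of them, and the other 3 KO+NM1 pieces lay above all KO pieces. The difference was smaller than the spread between pieces allowed to be called (log2 fold change -1.41 ± 0.69 (SE), adjusted p = 0.14 with edgeR), and without KO+NM1 piece 01 it was -1.87 with an adjusted p of 0.00895, and without KO+NM1 piece 04 -0.85 with an adjusted p of 0.325.

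Mcpt4 encodes the main chymase of connective tissue mast cells. Its level was 12.8, 10.1 and 5.18 CPM in KO pieces and 10.7, 27.5, 28.01 and 75.6 CPM in KO+NM1 pieces. Again KO+NM1 piece 01 fell inside the range of the KO pieces. The mean was 9.37 ± 3.87 CPM (SD, n = 3) in KO and 35.5 ± 27.95 CPM (SD, n = 4) in KO+NM1 pieces, and the gene passed the test narrowly (log2 fold change -1.92 ± 0.64, adjusted p = 0.0488 with edgeR). Without KO+NM1 piece 01 the log2 fold change was -2.35 with an adjusted p of 0.00446, and leaving out any other single piece of either tumor ended the call, with adjusted p of up to 0.125 (log2 fold change -1.26 without KO+NM1 piece 04).

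Cma1, the other chymase of connective tissue mast cells, lies on chromosome 14 near Mcpt4. It was at 7.87, 7.13 and 3.90 CPM in KO pieces and 5.25, 17.1, 21.1 and 39.0 CPM in KO+NM1 pieces. The order of the 7 pieces was close to that of Cpa3 and Mcpt4, with the same piece lowest and the same piece highest in each tumor. The log2 fold change was -1.71 ± 0.61 and missed the threshold (adjusted p = 0.0608 with edgeR). Without KO+NM1 piece 01 it was -2.16 with an adjusted p of 0.00203, and without KO+NM1 piece 04 -1.22 with an adjusted p of 0.133.

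Tpsb2 encodes the tryptase that connective tissue mast cells store bound to heparin. Its level was 14.0, 10.5 and 7.03 CPM in KO pieces and 5.18, 17.1, 17.2 and 41.9 CPM in KO+NM1 pieces. Here KO+NM1 piece 01 was the lowest of all 7 pieces. The difference was not called (log2 fold change -0.95 ± 0.63, adjusted p = 0.257 with edgeR), and without KO+NM1 piece 01 it was -1.40 with an adjusted p of 0.0196, and without KO+NM1 piece 04 -0.34, again not called.

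These 4 protease genes ranged more widely inside the KO+NM1 tumor than between the tumors, whose fitted levels differed 1.93-fold (Tpsb2) to 3.78-fold (Mcpt4). From the lowest to the highest KO+NM1 piece Cpa3 differed 9.17-fold, Tpsb2 8.08-fold, Cma1 7.42-fold and Mcpt4 7.07-fold, and from the lowest to the highest KO piece they differed between 1.99-fold (Tpsb2) and 2.56-fold (Cpa3). Their summed level was 42.3, 34.3 and 19.1 CPM in KO pieces and 24.4, 73.5, 81.6 and 187 CPM in KO+NM1 pieces.

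Tpsab1 encodes a tryptase closely related to Tpsb2, and C57BL/6 mice, the strain of the reference genome, are known to lack the protein. It was at 22.0, 10.0 and 6.37 CPM in KO pieces and at 1.71, 1.87, 1.73 and 2.84 CPM in KO+NM1 pieces, from 661, 289 and 193 counts and from 47, 46, 35 and 69 counts. Every KO piece was above every KO+NM1 piece, whereas the groups overlapped for its neighbour Tpsb2. Tpsab1 was 6.28-fold higher in KO pieces (log2 fold change 2.65 ± 0.45, adjusted p = 0.0034 with edgeR), and without KO+NM1 piece 01 the log2 fold change was 2.45 (adjusted p = 0.00331). Without KO piece 01, the highest, it was 1.90 (adjusted p = 0.0123). Within the KO tumor it fell in the same order of pieces as Tpsb2, and in the KO+NM1 tumor it ranged only 1.65-fold while Tpsb2 ranged 8.08-fold.

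**Figure D2:**
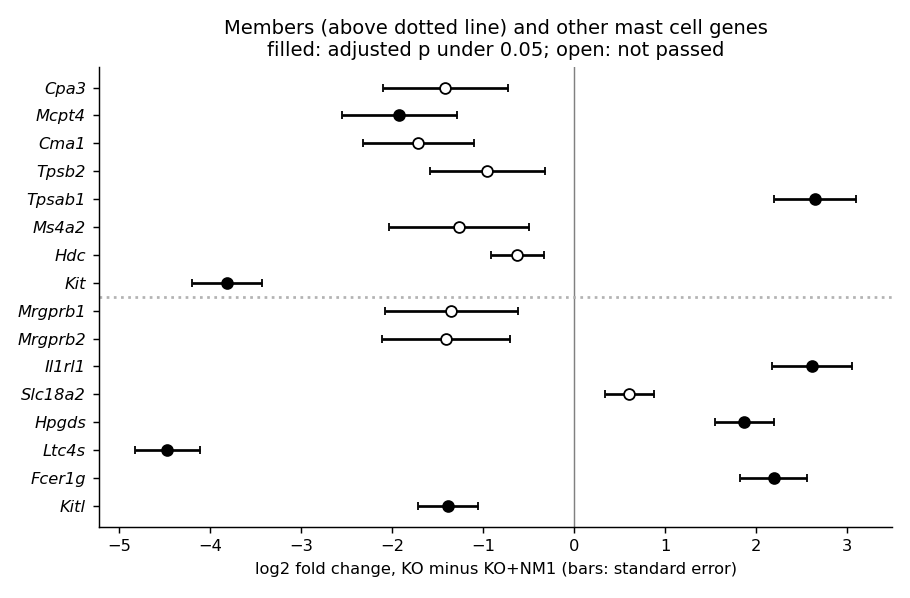
Log2 fold changes of the 8 tested members and of 8 other mast cell genes, KO minus KO+NM1, with standard errors as bars; filled points passed an adjusted p of 0.05 and open points did not. Tpsab1 lies at 2.65 to the right of 0 and the other 7 members lie to the left, from -0.63 for Hdc to -3.82 for Kit.

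The high-affinity IgE receptor is built from an alpha chain that binds IgE, the beta chain Ms4a2 and the gamma chain Fcer1g, which other leukocytes share. Ms4a2 was at 0.667, 0.417 and 0.165 CPM in KO pieces and 0.766, 0.366, 0.543 and 2.34 CPM in KO+NM1 pieces. Apart from KO+NM1 piece 04 the groups covered the same range, and the difference was not called (log2 fold change -1.26 ± 0.77, adjusted p = 0.216 with edgeR), at a log2 fold change of -0.44 without that piece. Its counts were 5 to 20 in KO pieces and 9 to 57 in KO+NM1 pieces.

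Fcer1a, the alpha chain, had 13, 3 and 2 counts in KO pieces and 0, 1, 4 and 0 counts in KO+NM1 pieces, too few for the test across genes. A two-sided exact permutation test of its CPM gave p = 0.343, where 35 splits of the pieces allow no p under 0.0571. In 5 of the 7 libraries Fcer1a was at or under 3 counts, and no difference was detectable at this depth. The gamma chain Fcer1g, at 69.6 to 80.0 CPM in KO and 9.59 to 29.1 CPM in KO+NM1 pieces, rose in KO pieces (log2 fold change 2.19 ± 0.37, adjusted p = 0.00308 with edgeR). So did all 6 macrophage markers, as described further on, and their part in the rise of Fcer1g was not tested.

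Hdc encodes histidine decarboxylase, the enzyme that makes histamine. It was at 2.27, 2.95 and 2.01 CPM in KO pieces and 2.74, 4.11, 3.61 and 4.44 CPM in KO+NM1 pieces, and the groups overlapped only through KO+NM1 piece 01, which was below KO piece 02. Among the 9 genes it varied little inside a tumor, 1.47-fold across KO and 1.62-fold across KO+NM1 pieces. The log2 fold change was -0.63 ± 0.29 and was not called (adjusted p = 0.117 with edgeR). Without KO+NM1 piece 01 it was -0.87 with an adjusted p of 0.0145, short of a 2-fold change.

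Kit, the receptor of stem cell factor, showed the largest difference of the 8 tested genes. Its level was 9.23, 11.0 and 9.01 CPM in KO pieces and 59.5, 126, 152 and 212 CPM in KO+NM1 pieces, so that every KO piece was below every KO+NM1 piece. Kit was 14.1-fold higher in KO+NM1 pieces (log2 fold change -3.82 ± 0.39, adjusted p = 0.00094 with edgeR), and without KO+NM1 piece 01 the log2 fold change was -4.19 (adjusted p = 1.07e-05). KO pieces differed only 1.22-fold in Kit, less than in any other of the 9 genes.

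Genes of luminal mammary epithelium were also lower in KO pieces. Of the 6 markers of that tissue, 4 were lower in KO pieces (Epcam, Krt8, Elf5 and Cldn3), 2 did not pass the test (Krt18 and Csn2) unless KO+NM1 piece 01 was left out, which made it 6 of 6, and none was at 0 in any piece. Their summed level was 3.63, 66.1 and 44.2 CPM in KO pieces and 288, 1104, 938 and 1305 CPM in KO+NM1 pieces. Inside the KO tumor the sum varied widely while Kit stayed between 9.01 and 11.0 CPM. Per kb of exon, Kit stood at 0.215 to 3.54 times the adhesion protein Epcam in KO pieces and 0.0958 to 0.166 times in KO+NM1 pieces. Their part in the difference in Kit was not tested.

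**Figure D3:**
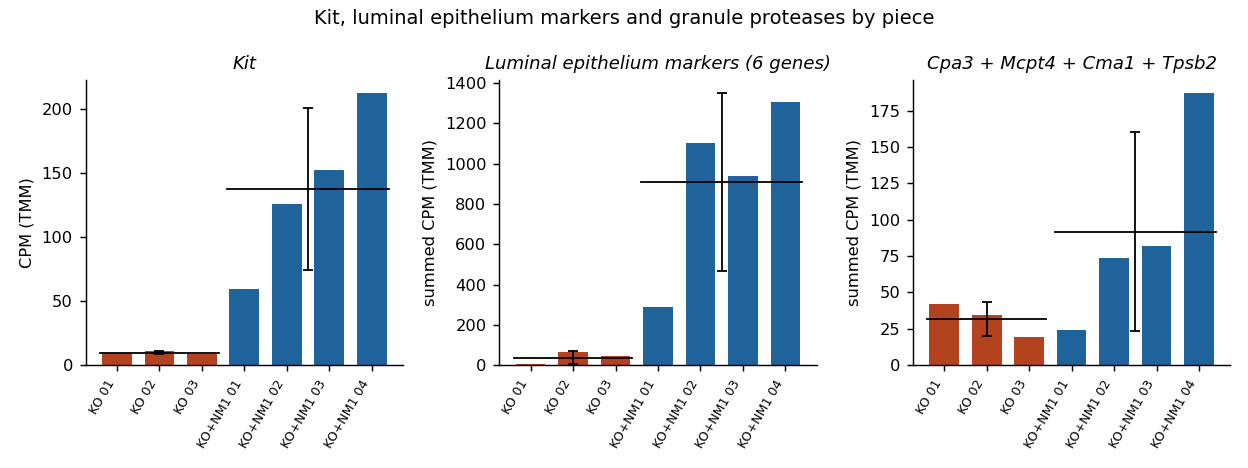
Level of Kit, summed level of 6 luminal epithelium markers and summed level of Cpa3, Mcpt4, Cma1 and Tpsb2 in each piece, in CPM after TMM scaling; horizontal lines are group means and bars SDs, cut at 0 (n = 3 and 4). Kit and the epithelium markers are higher in all 4 KO+NM1 pieces than in any KO piece, whereas the 4 proteases of KO+NM1 piece 01 (24.4 CPM) lie between those of KO pieces 02 and 03.

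Markers of other cells that use Kit moved in both directions. Of 4 markers of interstitial cells of Cajal, the chloride channel Ano1 fell in KO pieces (log2 fold change -2.11 ± 0.41, adjusted p = 0.00685 with edgeR), while the gap junction gene Gjc1 (1.60 ± 0.20, adjusted p = 0.0011) and Thbs4 (4.67 ± 0.92, adjusted p = 0.00768, or 3.62 without KO piece 03) rose. The summed level of the 4 was 91.5 to 149 CPM in KO and 55.2 to 182 CPM in KO+NM1 pieces. Of 6 melanocyte markers 4 were tested, and only Sox10 was called, lower in KO pieces (log2 fold change -7.84 ± 0.64, adjusted p = 0.000606). Dct (2.56 ± 1.71, adjusted p = 0.255), Pmel (0.91 ± 0.73, adjusted p = 0.332) and Mlana (-0.48 ± 0.98, adjusted p = 0.711) did not pass the test. The summed level was 0.991 to 21.3 CPM in KO and 22.0 to 113 CPM in KO+NM1 pieces, in the latter mostly from Sox10. Dct had 11, 261 and 0 counts in KO and 0, 12, 16 and 21 counts in KO+NM1 pieces. Tyrp1 had 9, 112 and 0 counts in KO and 0, 1, 1 and 4 counts in KO+NM1 pieces. The melanin enzyme gene Tyr had 0 counts in 6 pieces and 32 counts in KO piece 02. The part of these cells in the level of Kit was not tested.

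Proportions between genes of a library do not depend on the scaling of that library. They were computed per kb of exon, relative to Cpa3, and are described without a test. Cma1 kept the steadiest proportion, 1.45 to 1.85 times Cpa3 in KO and 1.78 to 2.20 times in KO+NM1 pieces, with overlapping ranges. Mcpt4 was at 2.09 to 2.42 times Cpa3 in KO and 2.52 to 4.41 times in KO+NM1 pieces, and Tpsb2 at 1.51 to 2.28 times in KO and 1.08 to 1.49 times in KO+NM1 pieces. Neither pair of ranges overlapped, though both were narrow beside those of the next 2 genes.

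Tpsab1 was at 1.10 to 2.12 times Cpa3 in KO pieces and 0.0676 to 0.374 times in KO+NM1 pieces. Relative to Tpsb2 it was at 1.195, 0.731 and 0.69 in KO pieces and 0.252, 0.0834, 0.0766 and 0.0516 in KO+NM1 pieces. In KO piece 01 Tpsab1 was the more abundant tryptase, in the other KO pieces somewhat the less abundant one, and in each KO+NM1 piece the minor one. Kit was at 0.209 to 0.522 times Cpa3 in KO and 1.19 to 3.05 times in KO+NM1 pieces. Hdc (0.0347 to 0.196 over all pieces) and Ms4a2 (0.0168 to 0.124) overlapped between the tumors.

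**Figure D4:**
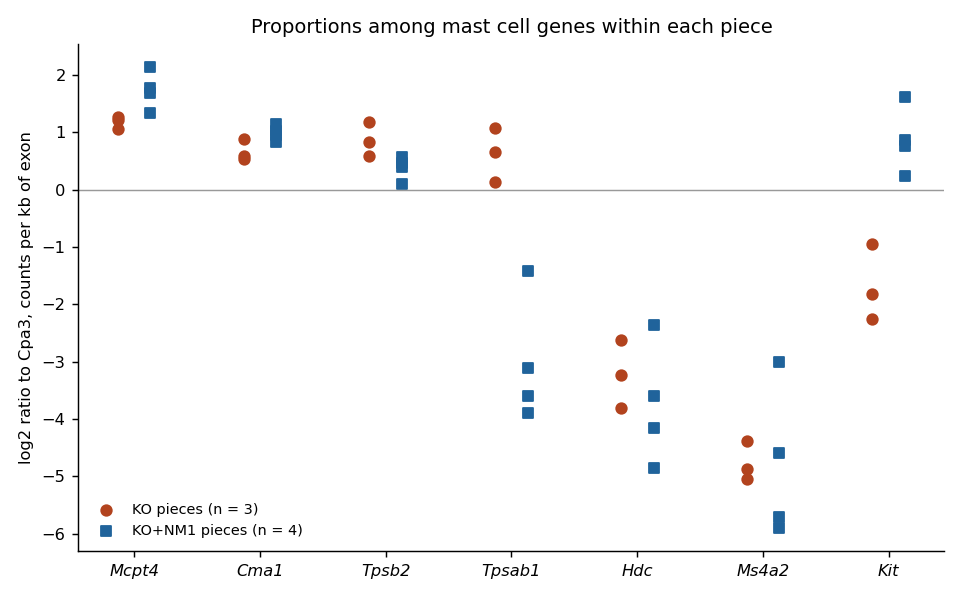
Log2 ratio of 7 members to Cpa3 in each piece, from counts per kb of exon (circles, 3 KO pieces; squares, 4 KO+NM1 pieces). Cma1 spans 0.60 on the log2 scale over all 7 pieces, whereas Tpsab1 spans 4.97 and Kit 3.87, with no overlap between tumors for either.

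In TPM, a scale that corrects for transcript length, Mcpt4 had the highest mean of the 9 in both tumors, 29.4 ± 12.6 (SD, n = 3) in KO and 84.4 ± 77.4 (SD, n = 4) in KO+NM1 pieces. In KO pieces Tpsb2 (22.9 ± 8.02 TPM), Tpsab1 (21.4 ± 14.0), Cma1 (20.1 ± 7.01) and Cpa3 (13.1 ± 5.74) followed, all with overlapping ranges. Kit (3.79 ± 0.44 TPM) lay below all of these and above Hdc (1.31 ± 0.27 TPM), without overlap, and Hdc overlapped with Fcer1a (0.706 ± 0.718 TPM) and Fcer1a with Ms4a2 (0.517 ± 0.318 TPM). In KO+NM1 pieces the order after Mcpt4 was Cma1 (48.6 ± 38.6 TPM), Kit (39.2 ± 20.97), Tpsb2 (33.3 ± 29.6) and Cpa3 (25.8 ± 22.5), again with overlapping ranges. Tpsab1 (2.56 ± 1.01 TPM) lay below these without overlap, and Hdc (1.50 ± 0.41), Ms4a2 (0.99 ± 0.989) and Fcer1a (0.119 ± 0.177) came last, each overlapping with its neighbour in this order.

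Other mast cell genes, of granules, the cell surface and the making of mediators, behaved unevenly. Of 17 such genes 14 were tested, and of these 4 were called higher in KO pieces, 1 lower, 8 did not pass the adjusted p, and Alox5ap passed it short of a 2-fold change. The median log2 fold change was 0.13. Mrgprb1 and Mrgprb2, receptors of the family through which basic peptides activate mast cells, kept the pattern of the proteases: Mrgprb1 was at 1.13, 0.834 and 0.726 CPM in KO and 0.511, 1.75, 1.53 and 5.39 CPM in KO+NM1 pieces. Neither was called (log2 fold changes -1.35 ± 0.73 and -1.40 ± 0.70, adjusted p = 0.176 and 0.141 with edgeR), and without KO+NM1 piece 01 both were called lower (-1.81 and -1.77, adjusted p = 0.0197 and 0.0445).

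Apart from the chymase Mcpt2, the genes that were called with all pieces are shared with other cells. Il1rl1, the receptor of interleukin 33, was at 14.6 to 30.4 CPM in KO and 1.79 to 5.39 CPM in KO+NM1 pieces (log2 fold change 2.62 ± 0.44, adjusted p = 0.00317 with edgeR). Hpgds, which makes prostaglandin D2, rose by 1.87 ± 0.32 on the log2 scale (adjusted p = 0.00333), and the granule membrane protein gene Cd63 by 1.43 ± 0.20 (adjusted p = 0.0016). Ltc4s, which makes leukotriene C4, was at 0.9 to 1.39 CPM in KO and 12.8 to 33.1 CPM in KO+NM1 pieces (log2 fold change -4.47 ± 0.36, adjusted p = 0.000517). Slc18a2, which loads histamine into granules, was above the KO+NM1 range in all KO pieces but did not pass the test (0.61 ± 0.27, adjusted p = 0.0974).

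Chymases of mucosal mast cells were found almost only in the KO tumor. Mcpt2 had 196, 13 and 30 counts in KO pieces and 1, 0, 0 and 0 counts in KO+NM1 pieces, and it was called higher in KO pieces (adjusted p = 0.00422 with edgeR). Against 3 counts in the KO+NM1 library with the highest such floor, its mean in KO pieces was at least 17.9-fold higher, and at least 4.87-fold higher without KO piece 01. Mcpt1 had 34, 3 and 0 counts in KO and 0 in each KO+NM1 piece and was not tested. KO piece 01 held most counts of both, and it was also the piece with most Tpsab1. Mcpt9 had 1 count over the 7 libraries together.

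**Figure D5:**
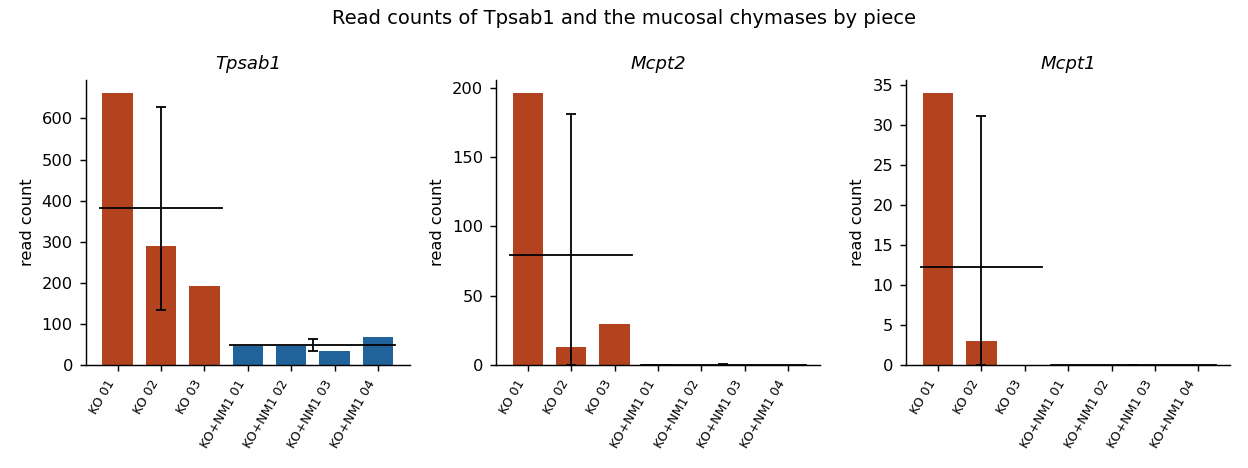
Read counts of Tpsab1, Mcpt2 and Mcpt1 in each piece; horizontal lines are group means and bars SDs, cut at 0 (n = 3 KO and 4 KO+NM1 pieces, library totals 24088309 to 28326568). KO piece 01 is the highest for each gene, with 661, 196 and 34 counts, and the KO+NM1 pieces hold 35 to 69 counts of Tpsab1 and at most 1 count of the others.

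The chymase locus on chromosome 14 also holds granzymes, proteases of cytotoxic lymphocytes, and Gzmb was called higher in KO pieces (33.4 to 56.1 against 1.14 to 2.15 CPM, log2 fold change 4.67 ± 0.29, adjusted p = 0.000229 with edgeR). Of 13 neighbours of Mcpt4 and Cma1 only 3 could be tested, 2 were called higher (Mcpt2 and Gzmb) and none lower. Around the tryptases 3 of 7 neighbours were tested, and 1 was called. Prss41 was called lower in KO pieces, from 0 to 2 counts against 2 to 66 (log2 fold change -4.71 ± 1.42, adjusted p = 0.0184). Prss41 had too few counts to be tested without KO+NM1 piece 01, and Prss27 was then called lower (-2.48 ± 0.78, adjusted p = 0.026). Tpsg1, the tryptase gene next to Tpsb2, had 2, 0 and 2 counts in KO and 0, 10, 5 and 19 counts in KO+NM1 pieces.

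Growth factors and cytokines of mast cells were called lower in KO pieces for 3 of the 4 tested and higher for 1. Kitl, which encodes stem cell factor, the ligand of Kit, was at 41.4, 34.3 and 38.1 CPM in KO and 46.8, 110, 103 and 137 CPM in KO+NM1 pieces (log2 fold change -1.39 ± 0.33, adjusted p = 0.0143 with edgeR). As for Kit, KO+NM1 piece 01 was the lowest of its tumor and piece 04 the highest. Il33 fell by 3.04 ± 0.25 (adjusted p = 0.000448) and Tslp by 2.37 ± 0.43 on the log2 scale (adjusted p = 0.00525), both alarmins released by epithelium and stroma. Il4, a cytokine of type 2 immunity that mast cells can also make, passed narrowly, higher by 1.34 ± 0.47 (adjusted p = 0.0478), and was above 0.05 in 9 of 14 alternatives, with adjusted p of up to 0.166. Without KO+NM1 piece 01 it was higher by 0.92 (adjusted p = 0.0162), short of a 2-fold change. Il3 and Il9 had 0 counts in every piece.

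Of 7 transcription factors used by mast cells, Tal1 (log2 fold change -1.67 ± 0.25, adjusted p = 0.00243 with edgeR) and Bhlhe40 (-1.01 ± 0.24, adjusted p = 0.0134) were lower in KO pieces. Gata2 (-0.43 ± 0.22, adjusted p = 0.148) and Mitf (-0.17 ± 0.29, adjusted p = 0.659), the pair best known for driving mast cell genes, did not pass the test with all pieces. Without KO+NM1 piece 01 Gata2 (-0.66 ± 0.17, adjusted p = 0.0111) and Mitf (-0.48 ± 0.18, adjusted p = 0.0486) passed the adjusted p, short of a 2-fold change. Gata1 had 1 to 8 counts in each piece and was not tested. Of 14 genes that carry the signal of the IgE receptor, Fcer1g alone was called with all pieces. It was higher in KO pieces, as 17.1% of all tested genes were. Without KO+NM1 piece 01, 11 of the 14 were called higher in KO pieces and none lower. Of all tested genes 21.7% were then called higher and 25.1% lower. The 11 included Syk, at 76.0 to 85.1 CPM in KO, 15.1 to 18.5 CPM in KO+NM1 pieces 02 to 04 and 473 CPM in KO+NM1 piece 01. That is the piece in which the leukocyte genes were high, and without it Syk was called higher in KO pieces (log2 fold change 2.11 ± 0.11, adjusted p = 9.93e-06). The summed level of these 14 genes was 787 to 848 CPM in KO and 335 to 1915 CPM in KO+NM1 pieces. All 4 genes shared by most leukocytes and 5 of 6 macrophage markers were also called higher without KO+NM1 piece 01. Their part in the calls of these signalling genes was not tested.

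Hnmt, the enzyme that inactivates histamine by methylation, fell in KO pieces (1.11 to 1.49 against 6.35 to 30.7 CPM, log2 fold change -4.10 ± 0.51, adjusted p = 0.00175 with edgeR). Among the receptors, Hrh1 (-0.61 ± 0.42, adjusted p = 0.274) and Hrh2 (1.64 ± 0.63, adjusted p = 0.0647) did not pass the test, and Hrh4 was at or under 2 counts in each piece. Without KO+NM1 piece 01 Hrh2 was called higher in KO pieces (2.27 ± 0.42, adjusted p = 0.00218). Hrh1 then passed the adjusted p, lower in KO pieces (-0.97 ± 0.28, adjusted p = 0.0177) but short of a 2-fold change. Aoc1, which oxidizes histamine, had 0 counts in KO pieces and in KO+NM1 piece 01 and 7 to 10 counts in the other 3.

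Cell types that share genes with mast cells were checked by their markers. Basophils, which also carry the IgE receptor and make histamine, are defined by Mcpt8 and Prss34, and these had 1 count and 0 counts in all 7 libraries together. Of 6 basophil markers 3 were tested and none was called with all pieces, and Cd69 was called higher in KO pieces without KO+NM1 piece 01. The summed level of the 6 was 20.7 to 28.8 CPM in KO and 17.2 to 64.9 CPM in KO+NM1 pieces, nearly all from Il3ra and Cd69, which other leukocytes express. The eosinophil peroxidase gene Epx had 1 count in all, and the summed level of 6 eosinophil markers was 1.38 to 4.45 CPM over all pieces. Of these 6 only Ear2 had enough counts to be tested. Ear2 was not called with all pieces and was called lower in KO pieces without KO+NM1 piece 01. Neutrophil markers summed to 1.13 to 4.97 CPM in KO, 3.08 to 6.77 CPM in KO+NM1 pieces 02 to 04 and 45.2 CPM in KO+NM1 piece 01. Of 7 such markers 4 were tested and only Elane was called, lower in KO pieces.

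Larger shifts in tissue make-up ran alongside. All 6 macrophage markers were higher in KO pieces, with a summed level of 2400 to 2780 CPM against 335 to 448 CPM, and 5 of 6 were without KO+NM1 piece 01, where Mrc1 fell short of a 2-fold change. White adipocyte markers were lower in KO pieces for 9 of 9 genes (51.5 to 213 against 4256 to 32191 CPM), and skeletal muscle markers were higher for 10 of 10 (2303 to 19222 against 6.62 to 25.4 CPM). Of 8 fibroblast markers 4 were lower (Dcn, Lum, Pdgfra and Pdgfrb), of which Lum was above 0.05 in 9 of 15 alternatives, with adjusted p of up to 0.174. Col1a1 was also called, higher in KO pieces, without KO+NM1 piece 01. The sum of the 8 overlapped between the tumors (7198 to 12994 and 2847 to 13010 CPM). None of the 4 leukocyte genes was called with all pieces, and all 4 were higher in KO pieces without KO+NM1 piece 01. The part of these tissues in the levels of the mast cell genes was not tested.

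The genes whose pattern over the 7 pieces was nearest to the mean of the 8 tested members, by the root mean square difference of centred log2 CPM among 14906 genes, were Ptprf (0.153), Col4a5 (0.235), Slc12a2 (0.295), Spsb4 (0.302) and Fbxo2 (0.306). Since that mean joins genes that moved in opposite directions, the nearest genes to single members were also listed, a step chosen after their values were seen. Nearest to Cpa3 among 14912 genes were Cma1 (0.201), Tpsb2 (0.311), Cyp11a1 (0.337), Foxj1 (0.339) and Mcpt4 (0.348), so that 3 of the 5 were members. Nearest to Tpsab1 were Fsd1, Ctxn1, Zfp428, Plod2 and Gpr173 (0.295 to 0.354), and nearest to Kit were C130021I20Rik, Hey1, Arg2, Fgf1 and Hhipl2 (0.218 to 0.253), none of them a member.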

How the data were processed

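Per the methods and the submitters' processing notes, the authors used Trimmomatic 0.36 for trimming, HISAT2 2.0.4 for alignment to GRCm38, SAMtools 0.1.19 for sorting and HTSeq for counting; the annotation release and the strand option are not given in the sources used here. The deposited values are raw read counts, whole numbers for 46603 Ensembl genes in each of 7 libraries, with 0 rows that name no gene. Totals were 24088309 to 28326568, and floors of 3 counts cover counting error only. Symbols, positions and exon lengths came from GENCODE M21, which named 46091 of the IDs and matched all 145 listed symbols once.

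Genes kept by filterByExpr (minimum count 10) were scaled by TMM and fitted with edgeR 4.0.16 in R 4.3.3, whose quasi-likelihood test gave KO minus KO+NM1 differences, adjusted by Benjamini-Hochberg over 16887 genes. Called means an adjusted p under 0.05 and a 2-fold change. Standard errors were taken from the fit and its moderated dispersion, and the biological coefficient of variation was 46.7%. TPM used union exon length. The steps were tested on simulated data. Libraries of the same tumor differed by 35.2 to 687 in chi-square over degrees of freedom, and pairs of different tumors by 497 to 1050, so none was a repeat. These ranges overlapped through KO+NM1 piece 01, at 465 to 687 from pieces of its own tumor and 497 to 528 from KO pieces.

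The members and all lists were chosen with earlier results of these data known. Named besides the members were, of each list, the 4 genes with the largest log2 fold changes past the adjusted p and a mean of at least 1 CPM, any defining gene with 3 counts or fewer in every library, the 5 genes nearest to the mean pattern of the tested members, and Myo1c. Other names were added after their values were seen (Mrgprb1, Mrgprb2, Mcpt1, Tpsg1, Slc18a2, Cd63, Alox5ap, Prss27, Ear2, Mrc1, Col1a1, Gata1, Gata2, Mitf, Syk, Hrh1, Hrh2, Aoc1, Prss41, Tyr, Dct, Pmel, Mlana, Tyrp1, Il3ra, Cd69, Krt18, Csn2, Elane). Some genes that fall under this rule or belong to these lists are not reported here. Promoters came from RefSeq (GRCm38.p6) and coding sequences from the GENCODE transcripts. Alternatives were DESeq2 size factors, library size alone, counts without mitochondrially encoded genes, every gene with at least 1 count, at least 10 counts in every library, the Wald test of DESeq2 1.42.0, limma voom (limma 3.58.1), the replicate number as a block, the adjusted p alone and each piece left out in turn.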

Additional observations from a re-analysis of the deposited data

Results flagged for a closer look

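In each group of 4 KO+NM1 pieces, the gap between an extreme piece and its nearest neighbour was set against the whole range of the group. In 6 of 30 such groups the gap exceeded Dixon's critical value for 4 samples, which chance does in about 1 in 20 independent groups. All of these groups were measured in the same 4 pieces and are not independent, so the share cannot show an excess over chance. Among the members this held for Tpsab1, where KO+NM1 piece 04 was at 2.84 CPM and the next piece at 1.87 CPM (0.86 of the range). In the other 5 groups the extreme piece was KO+NM1 piece 01. Its summed level was 1915 CPM for the IgE receptor signalling genes, with the next piece at 391 CPM (0.965), and 347 CPM for the mast cell transcription factors, with the next at 232 CPM (0.893). For the neighbours of the chymases it was at 16.7 CPM, with the next at 2.84 CPM (0.92). Neutrophil markers reached 45.2 CPM there, with the next at 6.77 CPM (0.912), and the 4 pan-leukocyte genes 2967 CPM, with the next at 152 CPM (0.985). For 8 of the 9 members the same piece was the lowest of its tumor, though for Fcer1a it tied with KO+NM1 piece 04 at 0 counts. KO pieces, being 3, were not examined in this way.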

How the results depend on the processing

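The count of members called lower in KO pieces was 2 with the settings reported. It was 1 with library size alone, with every gene of at least 1 count and with limma voom, Kit being the one left, and 3 with the Wald test of DESeq2, which added Cma1. Leaving out single pieces gave 1 to 5, with 5 without KO+NM1 piece 01 (Cpa3, Mcpt4, Cma1, Tpsb2 and Kit), where 25.1% of all tested genes were called lower, and 1 without any other piece. The call of Mcpt4 was lost in 10 of 15 alternatives, with adjusted p of 0.00446 to 0.189 over all 15, and those of Tpsab1 (at most 0.0251) and Kit (at most 0.0105) in none. The numbers of the pieces do not pair them, since same-numbered pieces correlated at 0.0802, 0.102 and -0.0165. With that number as a block 1 member was called lower (Kit), Mcpt4 had an adjusted p of 0.189 and Kitl one of 0.0829. Outside the members, Il4 was above 0.05 in 9 of 14 alternatives, Lum in 9 of 15, Myo1c in 6 of 15 and Kitl, Thbs4 and Pdgfra in 1 each. Over all tested genes, the adjusted p alone called 4345 higher, against 2882 with the 2-fold change. Of 119 alternative values of members, 103 kept side and direction, 10 lost the threshold, 6 gained it and 0 turned. Library size alone shifted the median of all genes by 0.17 on the log2 scale, the filter of 1 count by -0.11, the Wald test of DESeq2 by -0.15 and leaving out a KO piece by -0.13 to -0.14. Fcer1a, with 0 to 13 counts per piece, and Ms4a2, with 5 to 57, are limited by depth.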
